A study of Mus musculus with 12 samples.

Results

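C/EBP proteins (CCAAT/enhancer-binding proteins) are basic leucine zipper factors that bind DNA as pairs, with each other or with related zipper proteins. C/EBP alpha drives myeloid differentiation, C/EBP beta and C/EBP delta are induced in macrophages by inflammatory stimuli and act on cytokine and acute phase genes, and C/EBP epsilon serves late granulocyte maturation. C/EBP gamma has a zipper but lacks a strong activation domain and pairs with other family members and with ATF4. The genes described here are the 6 listed under the C/EBP name, Cebpa, Cebpb, Cebpd, Cebpe, Cebpg and Cebpz, taken by their family name. Of these, 5 had a named probe set among the 24675 genes tested, and Cebpz, which encodes a CCAAT-binding factor without the family's zipper, was not analysed here.

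The values come from 12 whole-transcript microarrays of bone marrow-derived macrophages, primary cells grown for 7 days from the marrow of wild-type mice 8 to 10 weeks old in medium conditioned by L cells, their source of M-CSF. The groups were PBS for 1 h, hepcidin for 1 h, PBS for 3 h and hepcidin for 3 h, with 3 arrays in each. All 4 groups had spent 1 h in DMEM alone, without the M-CSF source, before hepcidin, the peptide hormone of iron balance, was added to 2 of them. The strain and sex are not given in the labels, and the hepcidin dose reads 1 µg/ml in one protocol and 10 µg/ml in another. Whether the 3 samples of a group are separate mice or cultures is not given in the labels, so the spread behind every p-value may be technical.

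Values are log2 expression levels, array medians lay between 4.84 and 4.94, and 3 arrays per group limit the precision. As a check of the label, 10 of 10 macrophage markers with a named probe set, Adgre1, Cd68 and Csf1r among them, lay above the array median. The 13 markers listed included Emr1, an older symbol of Adgre1. Their mean level per array ran from 10.87 to 10.96 with PBS and 10.90 to 11.00 with hepcidin at 1 h, and from 10.87 to 10.98 and 10.81 to 10.95 at 3 h. None passed the test with hepcidin at 1 h, and at 3 h 4 of the 10 did: Cd14 rose by 0.80 (SE 0.08) and Spi1 by 0.30 (SE 0.06), while Mertk fell by 1.08 (SE 0.19) and Mrc1 by 0.35 (SE 0.06) on the log2 scale. The part of these changes in the results was not tested. All 12 dendritic cell and lymphocyte markers lay below the array median, as did 9 of 10 mast cell and basophil markers and 9 of 11 adipocyte and stromal markers. Among 14 neutrophil and granulocyte precursor markers 8 lay below it, and 0 passed the test with hepcidin at either time, but 2 did at 3 h without hepcidin 3 h replicate 1. In bulk samples, a change in the share of cells that express a gene and a change in RNA per cell cannot be told apart.

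Hepcidin raised Cebpb and Cebpd at both times, and in both genes the arrays of 3 h stood above those of 1 h. A gene is said to have risen or fallen where its adjusted p in limma, over all 24675 genes, was under 0.05. At 1 h 2 of the 5 C/EBP genes rose and 0 fell, where 0.527% of all genes rose and 0.0324% fell. At 3 h 2 of 5 rose and 0 fell, against 2.8% and 2.53% of all genes. The median log2 difference over the 5 genes was 0.08 at 1 h and -0.03 at 3 h, beside -0.00 and 0.02 over all genes, since the other 3 members stayed near or below 0. The hepcidin and PBS arrays did not overlap in 3 of the 5 genes at 1 h, Cebpb, Cebpd and Cebpg, as in 12.3% of all genes. At 3 h they did not overlap in Cebpa, Cebpb and Cebpd, and in 21.7% of all genes.

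**Figure D1:**
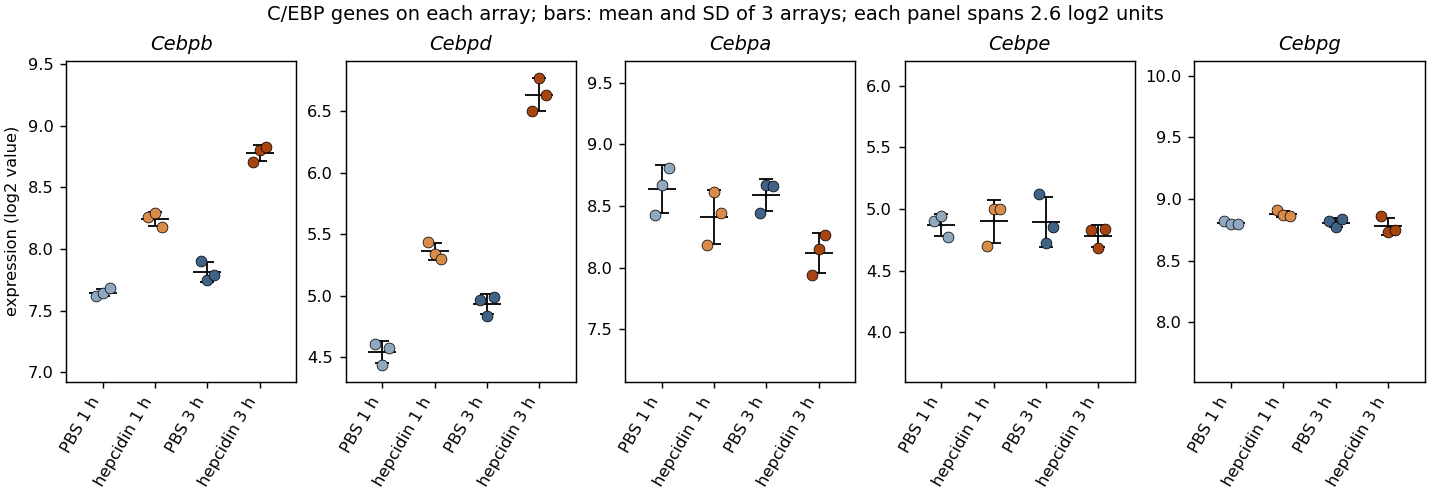
Log2 expression of 5 C/EBP genes on each of the 12 arrays, by group, with the mean and SD of 3 arrays; each panel spans the same 2.6 log2 units. Cebpb and Cebpd step up with hepcidin and reach 8.78 and 6.63 at 3 h, Cebpa is lowest with hepcidin at 3 h, and the groups of Cebpe overlap.

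Cebpb (Entrez gene 12608) encodes C/EBP beta, which controls inflammatory genes in macrophages and is made in long activating and short inhibitory forms from the same mRNA, forms that an mRNA measurement does not separate. With PBS at 1 h its log2 level was 7.62, 7.64 and 7.68 on the 3 arrays, and with hepcidin at 1 h it was 8.26, 8.29 and 8.18. At 3 h the PBS arrays read 7.90, 7.75 and 7.79 and the hepcidin arrays 8.71, 8.80 and 8.83. Every hepcidin array thus stood above every PBS array, whichever times are compared, and hepcidin at 3 h was the highest group. Cebpb rose 1.51-fold at 1 h (log2 difference 0.60, SE 0.07, limma adjusted p = 4.54e-04) and 1.95-fold at 3 h (0.97, SE 0.07, adjusted p = 2.12e-06). Among all 24675 genes this was the 137th largest rise at 1 h and the 142nd at 3 h. The means followed the order PBS 1 h at 7.65 ± 0.03, PBS 3 h at 7.81 ± 0.08, hepcidin 1 h at 8.24 ± 0.06 and hepcidin 3 h at 8.78 ± 0.06 (SD, n = 3). The lowest neighbours, the 2 PBS groups, differed by 0.17 (SE 0.07), and this did not pass (limma adjusted p = 0.372) although their arrays did not overlap.

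The stretch just before the RefSeq start of Cebpb is shown because it belongs to a member that rose at both times and its letters can be set beside those of Cebpa and Cebpg, which did not rise. The sequences are RefSeq's, build GRCm38.p6, 5′ to 3′ on the gene's strand, and cover the 250 bases that end at the base before the start. Capitals mark TGACG (the core of the cAMP response element, CRE), TATAAA (the TATA box) and CCAAT, each on either strand, so that CGTCA and ATTGG are marked too.
Cebpb, chr2:167688665-167688914, plus strand: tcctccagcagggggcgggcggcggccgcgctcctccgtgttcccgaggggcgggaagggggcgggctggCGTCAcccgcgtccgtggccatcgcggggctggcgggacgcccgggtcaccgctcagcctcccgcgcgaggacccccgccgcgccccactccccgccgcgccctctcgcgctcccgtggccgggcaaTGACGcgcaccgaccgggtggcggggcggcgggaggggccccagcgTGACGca
Cebpa, chr7:35119043-35119292, plus strand: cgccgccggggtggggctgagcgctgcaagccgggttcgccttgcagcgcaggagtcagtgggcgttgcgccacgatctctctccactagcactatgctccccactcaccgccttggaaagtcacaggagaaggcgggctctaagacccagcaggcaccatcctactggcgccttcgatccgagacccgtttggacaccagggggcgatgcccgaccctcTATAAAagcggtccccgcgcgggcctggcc
Cebpg, chr7:35056567-35056816, minus strand: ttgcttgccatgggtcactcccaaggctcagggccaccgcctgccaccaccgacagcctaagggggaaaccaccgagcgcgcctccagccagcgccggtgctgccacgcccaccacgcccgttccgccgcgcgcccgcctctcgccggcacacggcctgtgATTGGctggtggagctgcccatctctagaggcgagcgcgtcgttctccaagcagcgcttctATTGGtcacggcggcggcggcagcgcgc

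In the Cebpb window TGACG occurs 3 times, beginning 180, 53 and 7 bases before the start, and 17.8% of the 32851 windows of this length in the table hold it at least once. The same window has 5 matches to the SP1 box GGGCGG, a pair of which overlap, and 32.7% of all windows have a match. The Cebpa window holds TATAAA 30 bases before the start (12.4% of all windows) and the Cebpg window holds CCAAT 2 times, 89 and 28 bases before the start (33.8%). None of the 3 windows has the letters TTGCNNAA (a C/EBP site, 9.56% of windows), GGANTTTCC (an NF-kB site, 1.07%), TTCNNNGAA (a STAT site, 7.02%) or TGANTCA (an AP-1 site, 6.75%), searched on both strands. Such matches describe letters only, and the absence of a match says nothing about binding of a factor elsewhere.

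Cebpd (Entrez gene 12609) encodes C/EBP delta, a family member that is low in resting cells and induced in the acute phase response. With PBS at 1 h its log2 level was 4.61, 4.44 and 4.58, and with hepcidin at 1 h it was 5.44, 5.34 and 5.30. At 3 h the PBS arrays gave 4.97, 4.84 and 4.99 and the hepcidin arrays 6.50, 6.77 and 6.63. None of the 4 groups overlapped another, and the order was PBS 1 h, PBS 3 h, hepcidin 1 h and hepcidin 3 h, as for Cebpb. Cebpd rose by 0.82 on the log2 scale at 1 h (SE 0.08, limma adjusted p = 2.61e-04) and by 1.70 at 3 h (SE 0.08, adjusted p = 1.57e-07). No fold is given, because all PBS arrays of 1 h lay below the array median, where background enters the signal and makes a change read smaller. The difference of 0.39 between the PBS groups, the neighbours at the low end, did not pass (SE 0.08, adjusted p = 0.0789). It passed among genes above the median mean (adjusted p = 0.0295) and with array weights (0.0284).

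The hepcidin effect on Cebpd was larger at 3 h than at 1 h. The difference between the 2 effects, which is the interaction term of the model, was 0.88 (SE 0.12, limma adjusted p = 0.00448). The PBS arrays of Cebpd at 1 h lay below the array median, where background makes a change read smaller. The part of background in this difference was not tested. Of the 5 genes 1 passed upward and 0 downward in this comparison, against 0.523% and 0.507% of all genes. For Cebpb the same term was 0.37 (SE 0.09) with an adjusted p of 0.109, and it passed with a trended and robust prior (0.0448) and among genes above the median mean (0.036). It did not pass in the other alternatives, with an adjusted p of up to 0.26 when an array was left out. Within the hepcidin groups Cebpd rose by 1.27 from 1 h to 3 h (SE 0.08, adjusted p = 6.01e-06) and Cebpb by 0.54 (SE 0.07, adjusted p = 4.23e-04). That comparison gave 2 rises and 0 falls among the 5 genes, where 2.44% of all genes rose and 2.61% fell, and it uses the same hepcidin arrays as the comparisons with PBS. The arrays of 1 h and 3 h did not overlap in Cebpb, Cebpd and Cebpg, and in 20.1% of all genes.

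**Figure D2:**
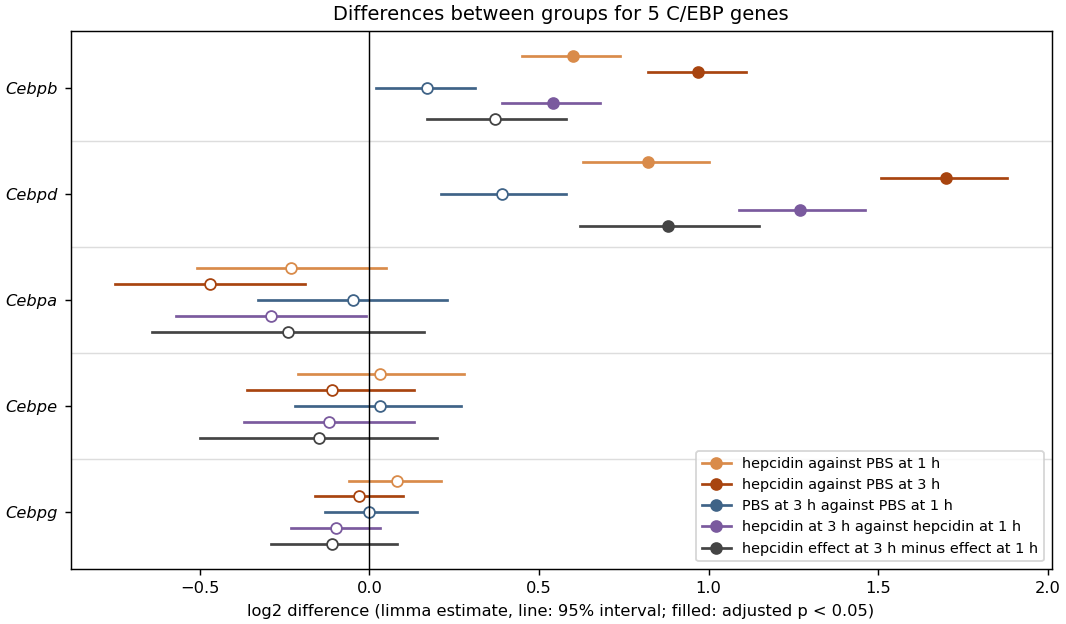
Log2 differences of 5 C/EBP genes in 5 comparisons, as limma estimates with 95% intervals; filled points have an adjusted p under 0.05. Cebpb is filled in 3 comparisons and Cebpd in 4, while the points of Cebpa, Cebpe and Cebpg are open throughout.

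Cebpa (Entrez gene 12606) encodes C/EBP alpha, which sets up the myeloid programme and restrains proliferation. Its log2 level was 8.43, 8.67 and 8.81 with PBS at 1 h and 8.18, 8.61 and 8.44 with hepcidin at 1 h, and these groups overlap. At 3 h it was 8.44, 8.67 and 8.66 with PBS and 7.94, 8.15 and 8.26 with hepcidin, where every hepcidin array lay below every PBS array. The difference was -0.23 at 1 h (SE 0.13, limma adjusted p = 0.819) and -0.47 at 3 h (SE 0.13, 95% interval -0.75 to -0.19, adjusted p = 0.0591). The value of 3 h therefore did not pass, but the same difference passed with a trended and robust prior (0.0315) and among genes above the median mean (0.0328). It also passed with array weights (-0.51, adjusted p = 0.0379) and in fits that omit the first replicate of 1 h, of PBS (0.0496) or of hepcidin (0.04). It did not pass without limma's moderation of the spread (adjusted p = 0.131), or with any array of 3 h left out (up to 0.188). The order of the means ran from hepcidin 3 h at 8.12 ± 0.16 through hepcidin 1 h at 8.41 ± 0.22 and PBS 3 h at 8.59 ± 0.13 to PBS 1 h at 8.64 ± 0.19 (SD, n = 3), and each neighbouring pair overlapped.

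Set against Cebpa on the same array, both inducible members moved up. With every gene taken relative to its PBS mean of the same time, the change of Cebpb exceeded that of Cebpa by 0.67 to 1.07 on the 3 hepcidin arrays of 1 h and by 1.34 to 1.54 on those of 3 h. On the PBS arrays the same quantity lay between -0.13 and 0.18 at 1 h and between -0.14 and 0.24 at 3 h. The mean excess was 0.83 (SE 0.16) at 1 h and 1.44 (SE 0.13) at 3 h for Cebpb. For Cebpd it was 1.05 (SE 0.21) and 2.17 (SE 0.13). In each of these 4 comparisons the groups did not overlap, with p = 0.1 in a two-sided exact permutation test, the smallest that 3 against 3 arrays can give. These are differences between changes, and they do not tell which of the genes had more mRNA. They reuse the values of the single-gene results, in which Cebpb and Cebpd already stood apart from PBS. They are no further support for those results.

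Cebpe (Entrez gene 110794), the granulocyte member, lay near the array median in all groups. Its arrays ranged from 4.77 to 4.94 with PBS at 1 h, from 4.70 to 5.00 with hepcidin at 1 h, from 4.72 to 5.12 with PBS at 3 h and from 4.68 to 4.84 with hepcidin at 3 h. All groups overlap, and the difference between hepcidin and PBS was 0.03 at 1 h (95% interval -0.21 to 0.28, limma adjusted p = 0.992) and -0.11 at 3 h (-0.36 to 0.13, adjusted p = 0.689). No background level was measured, and at a level near the array median the measurement may say little about the mRNA.

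Cebpg (Entrez gene 12611), whose product C/EBP gamma pairs with ATF4 in the amino acid response, differed little between groups. Its log2 level was 8.82, 8.80 and 8.80 with PBS at 1 h and 8.91, 8.87 and 8.86 with hepcidin at 1 h. At 3 h it was 8.82, 8.77 and 8.84 with PBS and 8.86, 8.73 and 8.75 with hepcidin. The hepcidin arrays of 1 h stood above the PBS arrays of 1 h by a small margin, and at 3 h the groups overlapped. The difference was 0.08 at 1 h (95% interval -0.06 to 0.21, limma adjusted p = 0.902) and -0.03 at 3 h (-0.16 to 0.10, adjusted p = 0.867). These intervals leave room for a log2 change of at most 0.21 in size, which is less than the measured rise of Cebpb at either time. Cebpzos (Entrez gene 68554), which lies beside Cebpz on the opposite strand, changed by 0.01 at 1 h (SE 0.08, adjusted p = 0.996), a value that was -0.02 after a second quantile normalization and -0.01 with array weights. At 3 h its difference was -0.09 (SE 0.08, adjusted p = 0.67).

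Time in PBS alone gave no call in the family. From 1 h to 3 h 0 of the 5 genes rose or fell in limma, against 0.207% and 0.243% of all genes. An unadjusted limma p under 0.05 was found for 2, Cebpb and Cebpd, and for 2619 of the 24675 genes tested. The arrays of Cebpb and Cebpd did not overlap between the times, as in 17.7% of all genes. The difference was -0.05 for Cebpa (SE 0.13), 0.03 for Cebpe (SE 0.11) and 0.00 for Cebpg (SE 0.06). This comparison uses the same PBS arrays as the comparisons with hepcidin.

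The genes with the array pattern closest to Cebpb and Cebpd were then sought among all genes tested. Likeness was the root mean square difference over the 12 arrays, on the log2 scale, after each gene was centred on its own mean. Cebpb itself varied by 0.44 around its mean on this measure. Its nearest genes were the phosphatase gene Mtmr14 (0.07), the chemokine gene Cxcl16 (0.08), and Lacc1, Plagl2 and Ift57 (0.09 each). With hepcidin they rose by 0.42 to 0.54 at 1 h and by 0.88 to 1.05 at 3 h. Cebpd varied by 0.79, and its nearest genes were the NF-kB subunit gene Nfkb2 (0.14), the transcription factor gene Ets2 (0.18), Tnfaip2 (0.18), the adaptor gene Traf1 (0.19) and the kinase gene Ikbke (0.20). They rose by 0.56 to 1.00 at 1 h and by 1.55 to 1.93 at 3 h. Since both sets were chosen for their likeness on these same arrays, rises of this size follow from the choice and support nothing further. At 1 h the calls of Ift57, Plagl2 and Ikbke were lost without PBS 1 h replicate 1 (adjusted p = 0.0504, 0.0533 and 0.0956), that of Plagl2 also without hepcidin 1 h replicate 2 (0.0515), and that of Ikbke without any other array but PBS 1 h replicate 3 and hepcidin 3 h replicate 1 (up to 0.174).

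**Figure D3:**
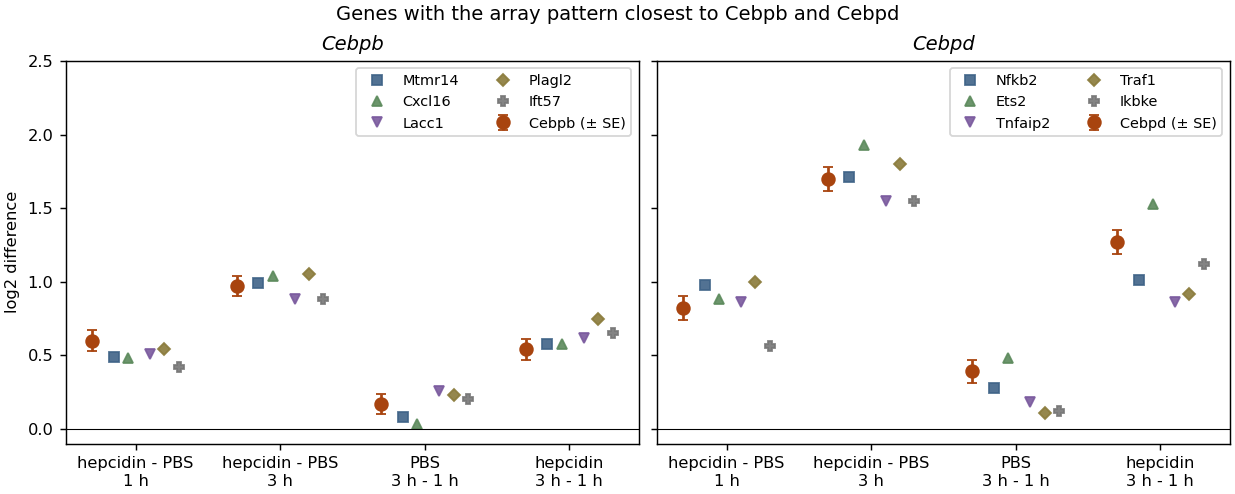
Log2 differences of Cebpb (left) and Cebpd (right), with their SE, and of the 5 genes nearest to each in pattern, in 4 comparisons. The genes near Cebpb lie between 0.88 and 1.05 for hepcidin against PBS at 3 h, and those near Cebpd between 1.55 and 1.93. They were chosen for this likeness on the same arrays.

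Zipper proteins that pair with C/EBP factors or share their sites moved in part. Of 16 such genes 2 rose at 1 h and 0 fell, with a median difference of 0.03, and 5 rose at 3 h and 0 fell, with a median of 0.16. Over all genes 0.527% rose and 0.0324% fell at 1 h, and 2.8% and 2.53% at 3 h, and these shares stand beside the counts of this and the next lists. The lists were chosen with earlier results of these data known, so the counts describe these genes and test nothing. Lists also share members: 2 of these 16, 6 of the myeloid differentiation targets and 3 of the stress genes are in another list. Their counts are therefore not separate observations. Most members also lay above the array median (15 of these 16), while the shares cover all genes. The AP-1 genes Junb (1.09, SE 0.09) and Fos (0.88, SE 0.14) were the pair of 1 h. At 3 h Jdp2, a zipper repressor, rose by 1.53 (SE 0.10, limma adjusted p = 1.56e-06), Batf by 0.62, Junb by 0.43 and Nfil3 by 0.39. The count of 3 h was 3 with PBS 3 h replicate 2 left out and 2 with replicate 3 of either group of 3 h left out, and that of 1 h was 1 without hepcidin 1 h replicate 2 or 3. Jdp2 and Batf kept their calls whichever array was left out, while Fos, Junb at 3 h and Nfil3 did not (limma adjusted p up to 0.0839, 0.0626 and 0.177).

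The remaining gene of the 5 was Atf4, the stress factor that pairs with C/EBP gamma. Its log2 level was 10.36 ± 0.01 with PBS and 10.38 ± 0.04 with hepcidin at 1 h, and 9.78 ± 0.09 and 10.08 ± 0.08 at 3 h (SD, n = 3). It fell by 0.58 with time in PBS (SE 0.07, limma adjusted p = 0.00464, but 0.0551 in a fit of the PBS groups alone) and stood 0.30 higher with hepcidin at 3 h (SE 0.07, adjusted p = 0.0214). The latter call was lost without any one of PBS 3 h replicates 1 and 3 and hepcidin 3 h replicates 1 and 3 (up to 0.105). Ddit3, which encodes CHOP, a partner that keeps C/EBP proteins from their usual sites, differed by -0.26 at 1 h (SE 0.13, adjusted p = 0.797) and by 0.16 at 3 h (SE 0.13, adjusted p = 0.623). In PBS it fell by 0.76 from 1 h to 3 h (SE 0.13, adjusted p = 0.0348), a call lost without any of the 6 PBS arrays (up to 0.139) and without replicate 2 of either hepcidin group (0.0575 and 0.0543).

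Genes that act on C/EBP proteins after translation come next. Of 14 genes of turnover and inhibition 0 passed at 1 h (median 0.05) and 3 rose at 3 h (median 0.06), with 0 falls. They were Trib1 at 1.04 (SE 0.18, limma adjusted p = 0.0043), whose product brings C/EBP alpha to the ubiquitin ligase COP1, the pseudokinase gene Trib3 at 0.63 (SE 0.10) and Cop1 itself at 0.50 (SE 0.07, adjusted p = 0.00102). At 1 h Trib1 differed by 0.83 (SE 0.18, limma adjusted p = 0.0925), which did not pass. Trib3 is also among the stress genes described last. Trib1 and Cop1 kept their calls whichever array was left out. Of 15 genes listed as regulators upstream of the family 0 passed at 1 h (median 0.07), and 2 rose and 1 fell at 3 h (median 0.05). Rela, an NF-kB subunit gene, rose by 0.37 (SE 0.06), the myeloid factor gene Spi1 rose by 0.30 (SE 0.06) and Klf4 fell by 1.02 on the log2 scale (SE 0.15).

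Known C/EBP target genes were described in 2 classes. Of 24 inflammatory and acute phase targets 6 rose at 1 h and 11 at 3 h (0.527% and 2.8% of all genes), with 0 falls at either time, and their median differences were 0.16 and 0.46. The largest rises of 1 h were Tnf at 3.60 (SE 0.13), the neutrophil chemokine gene Cxcl1 at 3.02 (SE 0.31), Il1b at 2.96 (SE 0.13) and Ptgs2, the inducible cyclooxygenase, at 2.58 (SE 0.14). At 3 h they were Il1b at 4.12, Ptgs2 at 3.25, Tnf at 2.67 and the lectin receptor gene Clec4e at 2.46. Over all 12 arrays 7 of the 24 had a mean below the array median, Il6, Il10, Csf3, Saa1, Slpi, Orm1 and Ptx3. Among 16 myeloid differentiation targets, one of which is Cebpe itself, 0 passed at 1 h (median 0.02), and 0 rose and 3 fell at 3 h (median -0.12), where 2.53% of all genes fell. Irf4 fell by 0.55 (SE 0.10), Il6ra, the interleukin-6 receptor gene, by 0.42 (SE 0.08) and Pparg, the lipid-sensing nuclear receptor gene, by 0.41 (SE 0.07).

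Genes of the ATF4 and C/EBP gamma stress response rose in 1 of 19 at 1 h (median 0.06) and 7 of 19 at 3 h (median 0.19), with 0 falls, while Cebpg did not pass at either time. The cystine transporter gene Slc7a11 rose by 2.95 at 3 h (SE 0.18), Nupr1 by 1.00 (SE 0.09), Chac1, whose enzyme degrades glutathione, by 0.75 (SE 0.11) and Trib3 by 0.63 (SE 0.10). The call of 1 h was Nupr1 at 0.47 (SE 0.09, limma adjusted p = 0.0485), and it was lost when any array but hepcidin 1 h replicate 3 or PBS 3 h replicate 3 was left out (up to 0.233). With time in PBS 6 of the 19 fell and 0 rose (median -0.04), where 0.243% of all genes fell and 0.207% rose. The count was 2 in a fit of the PBS groups alone and as low as 4 with an array left out. The comparison of 3 h and that of time share the PBS arrays of 3 h.

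**Figure D4:**
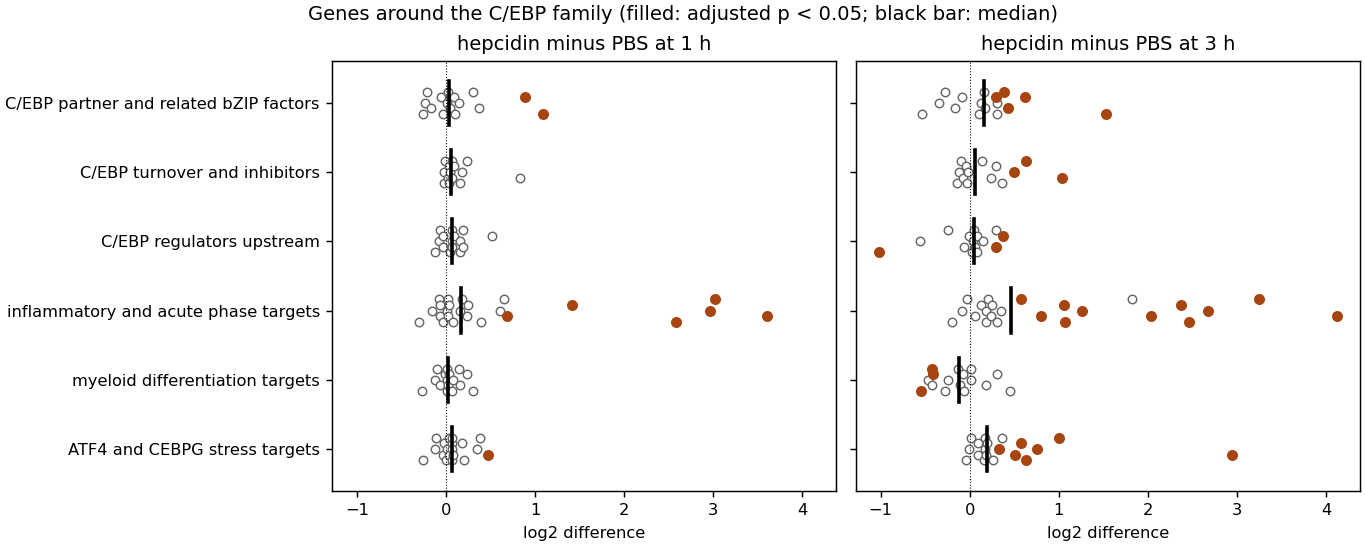
Log2 differences between hepcidin and PBS at 1 h (left) and 3 h (right) for 6 lists of genes around the C/EBP family; each point is a gene, filled where the adjusted p is under 0.05, and the black bar is the list's median. The inflammatory targets spread to 4.12 at 3 h with 11 filled points, and the 3 filled myeloid targets lie below 0.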

How the data were processed

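Total RNA of the 12 samples was hybridised to whole-transcript Affymetrix arrays, per the labels' protocols. The deposited values are one log2 expression value per probe set, made with RMA, which subtracts background and normalises across arrays, and Partek, both named without a version per the submitters' processing notes. That the base is 2 rests on RMA and on the range of the values. Of 25429 probe sets, 24675 were named for 1 gene by the platform annotation and tested, and 754 had no name. A model of the 4 group means was fitted to the deposited log2 values with limma 3.58.1 in R 4.3.3, and p-values were adjusted by Benjamini-Hochberg over all 24675 genes. The fit was tested on simulated data. Each C/EBP gene was named, with up to 4 called genes of each list and the 5 genes nearest to Cebpb and Cebpd. Members and lists were chosen with earlier results of these data known. Promoters and motif matches come from RefSeq's GRCm38.p6 table, which had entries for Cebpa, Cebpb and Cebpg. The alternatives were other scalings, filters, priors, weights, thresholds, a replicate block and leaving out each array.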

Additional observations from a re-analysis of the deposited data

Results flagged for a closer look

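The hepcidin effect on Cebpd differed between the times: the effect at 3 h exceeded that at 1 h by 0.88 on the log2 scale (SE 0.12, limma adjusted p = 0.00448, 3 arrays per group), and every hepcidin array of 3 h was above every hepcidin array of 1 h. The PBS arrays of 1 h lay below the array median, where a change reads smaller, and the part of this was not tested.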

How the results depend on the processing

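Every call of Cebpb and Cebpd kept its direction and passed under each alternative run. The PBS time count was 1 in place of 0, with Cebpd added, among genes above the median mean, with array weights and at an adjusted p under 0.1, and the interaction count was 2 in place of 1, with Cebpb added, with a trended and robust prior and among genes above the median mean. Leaving out each array gave counts of 2 to 2 at 1 h, 2 to 3 at 3 h, 0 to 0 for PBS time, 2 to 2 for hepcidin time and 1 to 1 for the interaction. Differences near 0 changed sign: Cebpe at 1 h ranged from -0.02 to 0.13 without single arrays, Cebpe over PBS time from -0.09 to 0.12 and at -0.02 with array weights, Cebpa over PBS time from -0.15 to 0.04, and Cebpzos from -0.08 to 0.07 at 1 h (-0.02 after a second quantile normalization, -0.01 with array weights) and from -0.15 to 0.01 over PBS time. The cause was not tested. The labels do not say what a replicate number marks, and pairing by it was not established: 9 of 18 same-number pairs correlated above 0.1, with r from -0.00542 to 0.246, and 10 of 12 arrays correlated best with one of their own number, a hint from the data. With the replicate block the calls over all genes went from 138 to 163 at 1 h, 1316 to 1615 at 3 h and 111 to 240 over PBS time, and Cebpa passed at 3 h (limma adjusted p = 0.00331) and over hepcidin time (0.0444). It changed no other call of the 5 genes.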

Other observations

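Cebpz, which was not analysed here, is known for a role in ribosome assembly. Measured were 20 other genes, all of nucleolar assembly but Mettl3, Mettl14 and Wtap, genes of RNA methylation. At 1 h 0 of the 20 passed in limma (median difference 0.04). At 3 h 3 rose and 1 fell (median 0.15), where 2.8% and 2.53% of all genes did. Bop1 rose by 0.47 (limma adjusted p = 0.00229), Nop58 by 0.42 and Nop56 by 0.31, while Npm1 fell by 0.50 (adjusted p = 0.0309, up to 0.136 when an array was left out). The count at 3 h was 7 among genes above the median mean and 2 in a fit of the compared groups alone.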
